A study of Mus musculus with 11 samples.

Results

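This report describes Myc and 9 target genes of its protein (Gnl3, Npm1, Nolc1, Ncl, Mrto4, Pa2g4, C1qbp, Ebna1bp2 and Rrp9) in a mouse model of T-cell prolymphocytic leukemia. They were taken by name, as the array rows that carry exactly 1 of these symbols, and are 10 of 19937 genes with a row of their own. Where a gene had several such rows, the one with the highest mean over the 11 arrays was used. Splenic T-cells were profiled on the Affymetrix Mouse Gene 1.0 ST array, which reads transcripts along their whole length. The exponential phase (5 arrays) comprised leukemic mice of 15 months on average, with more than 80% tumor cells in blood, more than 90% in spleen and a lymphocyte doubling time of 12 days (SEM 0.8). The chronic phase (3 arrays) comprised mice of 12 months on average with 30 to 70% tumor cells. Both phases came from Lckpr-TCL1A+/- mice, hemizygous for human TCL1A under the proximal Lck promoter, which is active in T-lineage cells from early thymic stages onward. The wild-type controls were age-matched C57BL/6 mice (3 arrays, each a pool of 3 animals). Magnetic beads selected CD8+ cells from the leukemic spleens but pan-CD3+ cells from the control spleens, so the effects of genotype and of cell selection cannot be told apart in any comparison with wild type.

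MYC is a transcription factor that binds DNA as a dimer with MAX, preferentially at the E-box motif CACGTG, and T-cells induce it when their antigen receptor is engaged. Among its best known targets are genes for making ribosomes. This takes place in the nucleolus, where RNA polymerase I transcribes ribosomal RNA and a large set of factors cuts, modifies and folds it while ribosomal proteins are added. Npm1 and Ncl encode the abundant nucleolar proteins nucleophosmin and nucleolin, Gnl3 encodes the nucleolar GTPase nucleostemin, and Nolc1 encodes a chaperone of small nucleolar ribonucleoproteins. Ebna1bp2 and Mrto4 encode assembly factors of the large ribosomal subunit, Rrp9 encodes a protein of the U3 particle that acts on the small subunit, and Pa2g4 encodes a ribosome-binding growth regulator. The product of C1qbp lies mainly in mitochondria, where mitochondrial translation needs it, so the word nucleolar fits this gene least.

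All values are log2 expression values after robust multi-array averaging (RMA), and a difference of 1 is a doubling. The pan-T markers Cd3d, Cd3e, Cd3g, Cd247, Cd2, Cd5 and Thy1 were present in all groups, at a log2 summed level of 10.61 to 10.80 in exponential, 10.14 to 10.76 in chronic and 10.78 to 11.19 in wild-type arrays. Exponential array 4 went against its CD8 label, with a summed level of Cd8a and Cd8b1 of 4.80, against up to 9.76 in the other exponential arrays, 8.60 to 9.62 in chronic and 7.78 to 9.35 in wild-type arrays. The summed level of 10 myeloid markers was 6.75 to 9.66 in exponential arrays, highest on array 4, 5.66 to 6.12 in chronic and 5.70 to 6.00 in wild-type arrays. Its Cd4 value was 5.18, against 2.15 to 2.44 in the other exponential, 1.79 to 2.59 in chronic and 4.21 to 4.62 in wild-type arrays. Calls of the 10 genes that change without this array are given both ways. Other cell type markers also moved with the groups. The summed level of 6 erythroid markers was 4.96 to 6.62 in exponential, 4.82 to 9.55 in chronic and 8.72 to 9.98 in wild-type arrays. That of 5 plasma cell markers was 6.54 to 8.24 in exponential, 6.80 to 10.25 in chronic and 9.27 to 11.18 in wild-type arrays. That of 4 CD4 T-cell markers was 4.20 to 5.86 in exponential, 4.04 to 4.50 in chronic and 5.72 to 5.99 in wild-type arrays. Of the 4 CD4 markers, 2 were called lower in the chronic phase and 2 in all leukemias. In the exponential phase 1 of 10 myeloid markers was called higher and 1 of 6 erythroid markers lower. In the chronic phase 1 of 6 NK cell markers was called higher. Over all 19937 genes, 83 were called in either direction in the exponential phase, 91 in the chronic phase and 144 in all leukemias. NK cell markers (6 genes) had a summed level of 5.11 to 10.41 in exponential arrays, lowest on array 4, 9.68 to 9.98 in chronic and 8.21 to 9.14 in wild-type arrays. B cell markers (7 genes) were at 6.08 to 8.32 in exponential, 5.42 to 7.39 in chronic and 5.73 to 7.29 in wild-type arrays. Dendritic cell markers (6 genes) were at 4.81 to 5.70 in exponential, 4.64 to 4.93 in chronic and 4.76 to 5.03 in wild-type arrays. The part of these markers in the differences from wild type below was not tested. In such bulk samples, more transcript per cell and more cells that carry the transcript cannot be told apart.

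Leukemic T-cells had higher mean levels of all 10 genes than wild-type T-cells in both phases on the rows used, although the second row of Mrto4 had its highest mean in wild type. Of the 10, 2 were called higher in the exponential phase (Ebna1bp2 and C1qbp) and 3 in the chronic phase (those and Myc), where called means a limma adjusted p under 0.05 over all genes and a fold of at least 1.5. Over all 19937 genes, 0.135% were called higher in the exponential and 0.14% in the chronic phase. A difference above 0 was found for 51.7% of all genes in the exponential and 49.7% in the chronic phase. The median difference of the 10 genes was 0.54 in the exponential phase, where that of all genes was 0.01, and 0.82 in the chronic phase, where that of all genes was close to 0. Every array of the phase lay above every wild-type array for 7 of the 10 genes in the exponential phase, as for 3.28% of all genes, and for 9 of the 10 in the chronic phase, as for 8.28% of all genes. Without Mrto4 these counts were 7 of 9 in the exponential and 8 of 9 in the chronic phase. With both phases in 1 group, 2 of the 10 genes were called (C1qbp and Ebna1bp2; 0.281% of all genes were called higher), and all 10 had an unadjusted limma p under 0.05, as did 5.47% of all genes in this direction. These comparisons share the same 3 wild-type arrays and are not independent of each other. Without wild-type array 1, 0 of the 10 genes were called in any of them. Without wild-type array 2 or 3, 0 were called in either phase alone. With both phases in 1 group, 3 were called without wild-type array 2 and 2 without wild-type array 3.

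**Figure D1:**
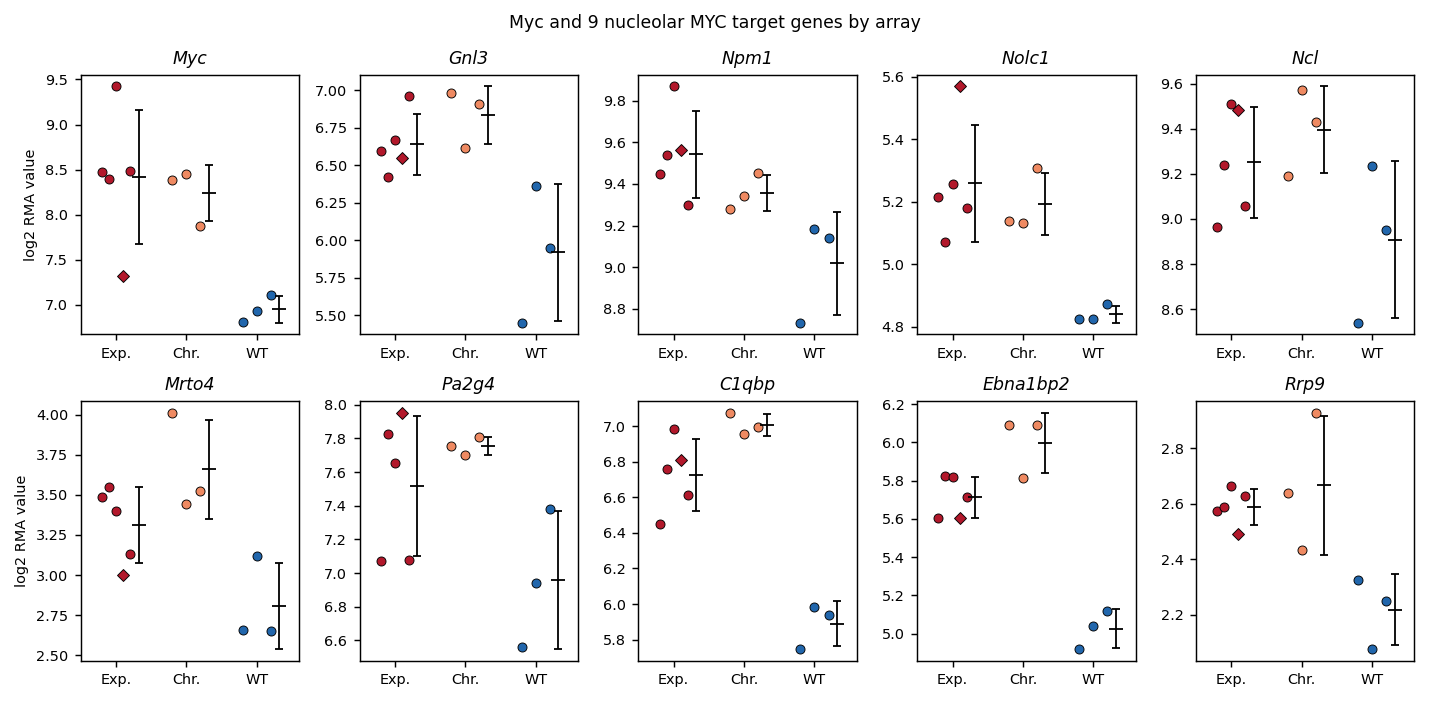
Log2 RMA value of Myc and 9 target genes on each of 11 arrays (exponential left, chronic middle, wild type right; bars, mean ± SD; the diamond is exponential array 4). All leukemia points lie above all wild-type points for Myc, Gnl3, Npm1, Nolc1, C1qbp, Ebna1bp2 and Rrp9, and the groups overlap for Ncl, Mrto4 and Pa2g4.

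Myc had the largest mean difference of the 10 genes and also the widest spread between leukemias. Exponential arrays 1 to 5 had Myc at 8.47, 8.40, 9.42, 7.32 and 8.48, chronic arrays 1 to 3 at 8.39, 8.45 and 7.88, and wild-type arrays 1 to 3 at 6.81, 6.93 and 7.10. All 8 leukemias therefore lay above all 3 controls, with exponential array 3 far above the other leukemias and exponential array 4 only 0.22 above the highest control. The mean was 8.42 ± 0.74 in exponential arrays (SD, n = 5) and 6.95 ± 0.15 in wild type (SD, n = 3). This is a 2.77-fold difference (log2 difference 1.47, SE 0.37, 95% interval 0.65 to 2.29) that was not called by limma (adjusted p = 0.163). Without exponential array 4 it was 1.75 and called (adjusted p = 0.00994). In the chronic phase the mean was 8.24 ± 0.31 (SD, n = 3) and Myc rose 2.44-fold over wild type (log2 difference 1.29, SE 0.18, limma adjusted p = 0.0379). That call was kept without chronic array 3, but lost without chronic array 1 (adjusted p = 0.0958), chronic array 2 (0.108) or wild-type arrays 1, 2 or 3 (0.136, 0.137 and 0.0960), and it was lost in 1 limma fit over all 3 groups (adjusted p = 0.209). Both phases together gave 1.40 (SE 0.31, limma adjusted p = 0.0657), and 1.55 without exponential array 4 (adjusted p = 0.00843).

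C1qbp and Ebna1bp2 were the 2 genes called higher in each comparison with wild type. With both phases in 1 group they had the widest gaps of the 10 genes between leukemias and controls, and in the chronic phase alone the gap of Myc (0.77) was wider than that of Ebna1bp2 (0.70). C1qbp stood at 6.45, 6.76, 6.98, 6.81 and 6.61 in exponential arrays 1 to 5, at 7.08, 6.95 and 7.0 in chronic arrays 1 to 3, and at 5.75, 5.98 and 5.94 in wild-type arrays 1 to 3. The lowest leukemia was 0.47 above the highest control. C1qbp was 1.78-fold higher in the exponential phase than in wild type (log2 difference 0.83, SE 0.13, limma adjusted p = 0.0357), 2.17-fold in the chronic phase (1.12, SE 0.12, adjusted p = 0.0166) and 1.92-fold in all leukemias (0.94, SE 0.13, adjusted p = 0.00668). Ebna1bp2 stood at 5.61, 5.82, 5.82, 5.61 and 5.71 in exponential arrays 1 to 5, at 6.09, 5.82 and 6.09 in chronic arrays 1 to 3, and at 4.92, 5.04 and 5.12 in wild-type arrays 1 to 3. Here the gap between the lowest leukemia and the highest control was 0.49. Ebna1bp2 was 1.61-fold higher in the exponential phase (log2 difference 0.69, SE 0.10, limma adjusted p = 0.0273), 1.96-fold in the chronic phase (0.97, SE 0.13, adjusted p = 0.0344) and 1.73-fold in all leukemias (0.79, SE 0.12, adjusted p = 0.00942).

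Many of these calls were lost with 1 array left out, while the differences barely moved. Over all genes, calls in the exponential phase went from 83 to between 16 and 61, but to 221 without exponential array 4. Those in the chronic phase went from 91 to between 8 and 45, but to 108 without chronic array 3. In the exponential phase both genes lost their call without exponential array 2, 3 or 5 or any wild-type array, and over all arrays left out in turn the difference was 0.76 to 0.90 for C1qbp (limma adjusted p up to 0.118) and 0.63 to 0.73 for Ebna1bp2 (up to 0.0911). In the chronic phase C1qbp kept its call without chronic array 2 or 3 and lost it without chronic array 1 (adjusted p = 0.0552) or wild-type arrays 1, 2 or 3 (0.0697, 0.0790 and 0.0631). Ebna1bp2 lost its chronic-phase call whichever array was left out (limma adjusted p from 0.0566 to 0.134). With all leukemias both calls were lost only without wild-type array 1, at 0.87 for C1qbp (adjusted p = 0.0501) and 0.74 for Ebna1bp2 (0.0656).

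The promoters of these 2 genes are shown because they carry the calls, and that of Nolc1 because it was the only one with a variant of the MYC motif. Windows of 300 bases around the start of the gene, 250 before and 50 after it, were taken from RefSeq for build GRCm38.p6 and were found for 8 of the 10 genes. Each is printed on the strand of the gene with 250 bases before the start and the first 10 after it, and capitals mark the motifs.
C1qbp (chr11:70983017-70983276, minus strand): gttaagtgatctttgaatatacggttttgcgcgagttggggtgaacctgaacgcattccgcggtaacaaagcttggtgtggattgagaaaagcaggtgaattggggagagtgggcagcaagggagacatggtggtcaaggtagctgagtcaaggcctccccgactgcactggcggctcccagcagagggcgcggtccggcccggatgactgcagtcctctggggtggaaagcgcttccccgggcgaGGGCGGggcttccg
Ebna1bp2 (chr4:118620549-118620808, plus strand): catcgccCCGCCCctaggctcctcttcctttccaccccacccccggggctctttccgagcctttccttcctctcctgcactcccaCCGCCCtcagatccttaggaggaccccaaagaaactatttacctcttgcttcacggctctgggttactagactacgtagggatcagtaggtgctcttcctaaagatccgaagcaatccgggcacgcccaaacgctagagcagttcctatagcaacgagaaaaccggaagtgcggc
Nolc1 (chr19:46075597-46075856, plus strand): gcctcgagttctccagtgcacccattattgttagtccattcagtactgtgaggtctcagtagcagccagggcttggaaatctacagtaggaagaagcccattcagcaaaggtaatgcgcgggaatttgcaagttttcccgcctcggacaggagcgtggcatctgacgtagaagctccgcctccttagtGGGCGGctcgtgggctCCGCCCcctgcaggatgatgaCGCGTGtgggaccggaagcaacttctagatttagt
The E-box CACGTG was in 0 of the 8 windows on either strand, and in 7.15% of all 32851 windows. Its variant CACGCG was in 1 of the 8, that of Nolc1, from 25 to 20 bases before the start (reading CGCGTG on the strand of the gene), and in 9.27% of all windows. The GC box GGGCGG was in 6 of the 8 on either strand (Ncl, Ebna1bp2, Pa2g4, C1qbp, Gnl3 and Nolc1) and in 35.7% of all windows, and some of the copies in Gnl3 overlap each other. These matches describe letters in a short window, and binding was not measured.

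Of the abundant nucleolar proteins, Npm1 separated the leukemias from the controls and Ncl did not, and neither was called. Npm1 stood at 9.45, 9.54, 9.87, 9.56 and 9.30 in exponential arrays 1 to 5, at 9.28, 9.34 and 9.45 in chronic arrays 1 to 3, and at 8.73, 9.18 and 9.14 in wild-type arrays 1 to 3. The lowest leukemia was 0.09 above the highest control. The differences from wild type were 0.52 in the exponential phase (SE 0.15, limma adjusted p = 0.229) and 0.34 in the chronic phase (SE 0.15, adjusted p = 0.468). Npm1 also had 3 rows shared with Gm15484, which were not used. On each of them the group means had the same order as on the Npm1 row, exponential before chronic before wild type, while single leukemia and control arrays overlapped. Ncl stood at 8.97, 9.24, 9.51, 9.48 and 9.06 in exponential arrays 1 to 5, at 9.19, 9.57 and 9.43 in chronic arrays 1 to 3, and at 8.54, 9.23 and 8.95 in wild-type arrays 1 to 3. Wild-type array 2 lay above exponential arrays 1 and 5 and chronic array 1. The Ncl differences were 0.34 in the exponential phase (SE 0.18, limma adjusted p = 0.617) and 0.49 in the chronic phase (SE 0.20, adjusted p = 0.408).

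Gnl3 and Nolc1 also separated the leukemias from the controls, by a narrow margin for Gnl3. Gnl3 stood at 6.60, 6.42, 6.67, 6.54 and 6.96 in exponential arrays 1 to 5, at 6.98, 6.62 and 6.90 in chronic arrays 1 to 3, and at 5.45, 6.36 and 5.95 in wild-type arrays 1 to 3. The 3 controls differed more among themselves than the 8 leukemias did, and wild-type array 2 came within 0.06 of the lowest leukemia. The differences were 0.72 in the exponential phase (SE 0.20, limma adjusted p = 0.208), 0.91 in the chronic phase (SE 0.23, adjusted p = 0.180) and 0.79 in all leukemias (SE 0.18, adjusted p = 0.0657). Gnl3 was called in all leukemias without exponential array 4 (0.81, adjusted p = 0.0481) or without wild-type array 2 (1.01, adjusted p = 0.0324). Nolc1 stood at 5.21, 5.07, 5.26, 5.57 and 5.18 in exponential arrays 1 to 5, at 5.14, 5.13 and 5.31 in chronic arrays 1 to 3, and at 4.82, 4.82 and 4.87 in wild-type arrays 1 to 3. Its controls lay close together, 0.20 below the lowest leukemia, and exponential array 4 was the highest of all. The Nolc1 differences were 0.42 in the exponential phase (SE 0.12, limma adjusted p = 0.221) and 0.35 in the chronic phase (SE 0.11, adjusted p = 0.288), each under the fold of 1.5 that a call requires.

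Pa2g4 varied widely within the exponential phase, and Rrp9 varied little. Its values were 7.07, 7.83, 7.65, 7.95 and 7.08 in exponential arrays 1 to 5, 7.75, 7.70 and 7.81 in chronic arrays 1 to 3, and 6.56, 6.94 and 7.38 in wild-type arrays 1 to 3. Exponential arrays 1 and 5 lay below wild-type array 3, and the other leukemias lay above all controls. The difference was 0.56 in the exponential phase (SE 0.25, limma adjusted p = 0.521) and 0.79 in the chronic phase (SE 0.20, adjusted p = 0.180). Rrp9 stood at 2.57, 2.59, 2.66, 2.49 and 2.63 in exponential arrays 1 to 5, at 2.64, 2.43 and 2.93 in chronic arrays 1 to 3, and at 2.33, 2.08 and 2.25 in wild-type arrays 1 to 3. All leukemias were above all controls for Rrp9, by as little as 0.11, and its values lie near the median of all rows (2.30). No detection calls were used, so the background level at this end of the scale is not known. The Rrp9 differences were 0.37 in the exponential phase (SE 0.09, limma adjusted p = 0.167) and 0.45 in the chronic phase (SE 0.16, adjusted p = 0.331).

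Mrto4 was the gene whose result depended on the row. Its 2 rows had similar means over the 11 arrays (3.27 for the row used and 3.17 for the other) and opposite group orders. On the row used, values were 3.49, 3.55, 3.40, 3.00 and 3.13 in exponential arrays 1 to 5, 4.01, 3.44 and 3.52 in chronic arrays 1 to 3, and 2.66, 3.12 and 2.65 in wild-type arrays 1 to 3. All chronic arrays were above all controls, and exponential array 4 was below wild-type array 2. The row gave differences of 0.51 in the exponential phase (SE 0.16, limma adjusted p = 0.302) and 0.85 in the chronic phase (SE 0.20, adjusted p = 0.152). On the other row the means were 3.35 in exponential, 2.55 in chronic and 3.49 in wild-type arrays, with chronic values of 2.45, 3.53 and 1.68 against controls at 2.76, 3.56 and 4.16. Of these chronic arrays, 2 lay below all controls and 1 within their range. The mean of both rows gave a chronic-phase difference of -0.04 (adjusted p = 0.980), so the direction for Mrto4 is not settled.

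**Figure D2:**
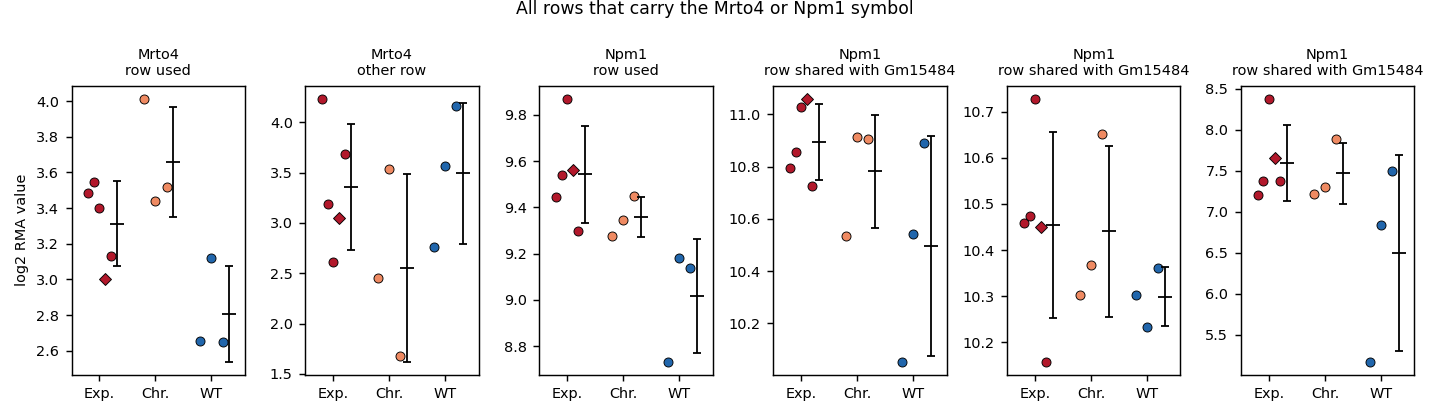
Log2 RMA value on each array for the 2 rows of Mrto4 and the 4 rows that carry Npm1 (exponential left, chronic middle, wild type right; bars, mean ± SD; the diamond is exponential array 4). The chronic arrays lie highest on the Mrto4 row used, with a mean of 3.66, and lowest on its other row, with a mean of 2.55.

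Between the phases the 10 genes did not separate. Of the 10, 3 had a higher mean in the exponential than in the chronic phase (Npm1 by 0.19, Myc by 0.18 and Nolc1 by 0.07), and 7 had a lower one, down to -0.34 for Mrto4. All 10 overlapped between phases. None was called (limma adjusted p from 0.789 to 0.958), and 0% of all 19937 genes were. Only the intervals of C1qbp (-0.28, 95% interval -0.57 to -0.002) and Ebna1bp2 (-0.29, 95% interval -0.53 to -0.04) lay below 0 throughout, as did those of 3.5% of all genes. A difference above 0 was found for 51.1% of all genes. The 95% interval of the Myc difference ran from -0.68 to 1.04, so a change of Myc of up to about a doubling between phases could not be told from the spread of these arrays. Without exponential array 3 the Myc difference was -0.07.

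**Figure D3:**
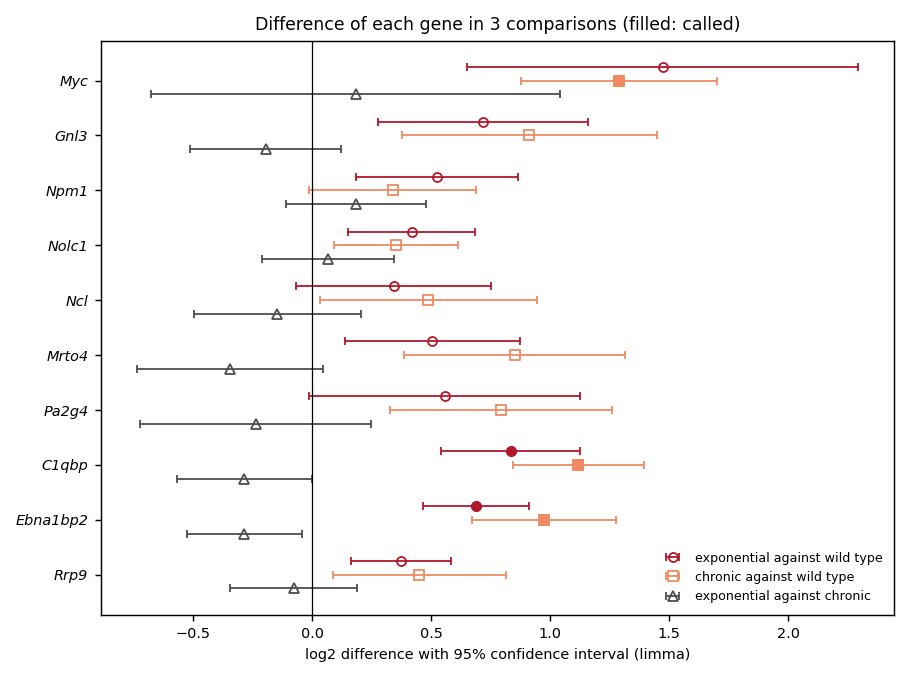
Log2 difference of each gene with its 95% confidence interval (limma) for exponential against wild type, chronic against wild type and exponential against chronic; filled symbols are called. Both comparisons with wild type lie above 0 for all 10 genes, and the exponential-against-chronic differences lie between -0.34 and 0.19.

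Array by array, the order of the leukemias by Myc was not their order by the 9 targets. Exponential array 4 had the lowest Myc of the 8 leukemias (7.32) together with the highest Nolc1 (5.57) and Pa2g4 (7.95), and it was above all controls for 9 of the 10 genes. Exponential array 3 had the highest Myc (9.42) and the highest Npm1 (9.87). Exponential arrays 1 and 5, with Myc at 8.47 and 8.48, had the lowest Pa2g4 (7.07 and 7.08) and the lowest Ncl (8.97 and 9.06) of the leukemias. Over the 8 leukemia arrays Pearson's r between Myc and a target ran from -0.60 (Nolc1) to 0.38 (Npm1), and none of 9 relations passed an exact two-sided permutation test (adjusted p = 0.97 for each r). The strongest rank relation was negative, that of Pa2g4 (Spearman's rho = -0.83, exact permutation p = 0.0154, adjusted p = 0.138). Without exponential arrays 3 and 4, the 2 arrays farthest from the median of Myc, all 9 r were negative, from -0.14 (Mrto4) to -0.89 (Rrp9). On the arrays left, Myc lay between 8.39 and 8.48 except on chronic array 3 (7.88). These r therefore rest largely on that 1 array and do not show an inverse relation. Each phase has fewer than 6 arrays, so no r is given within a phase.

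**Figure D4:**
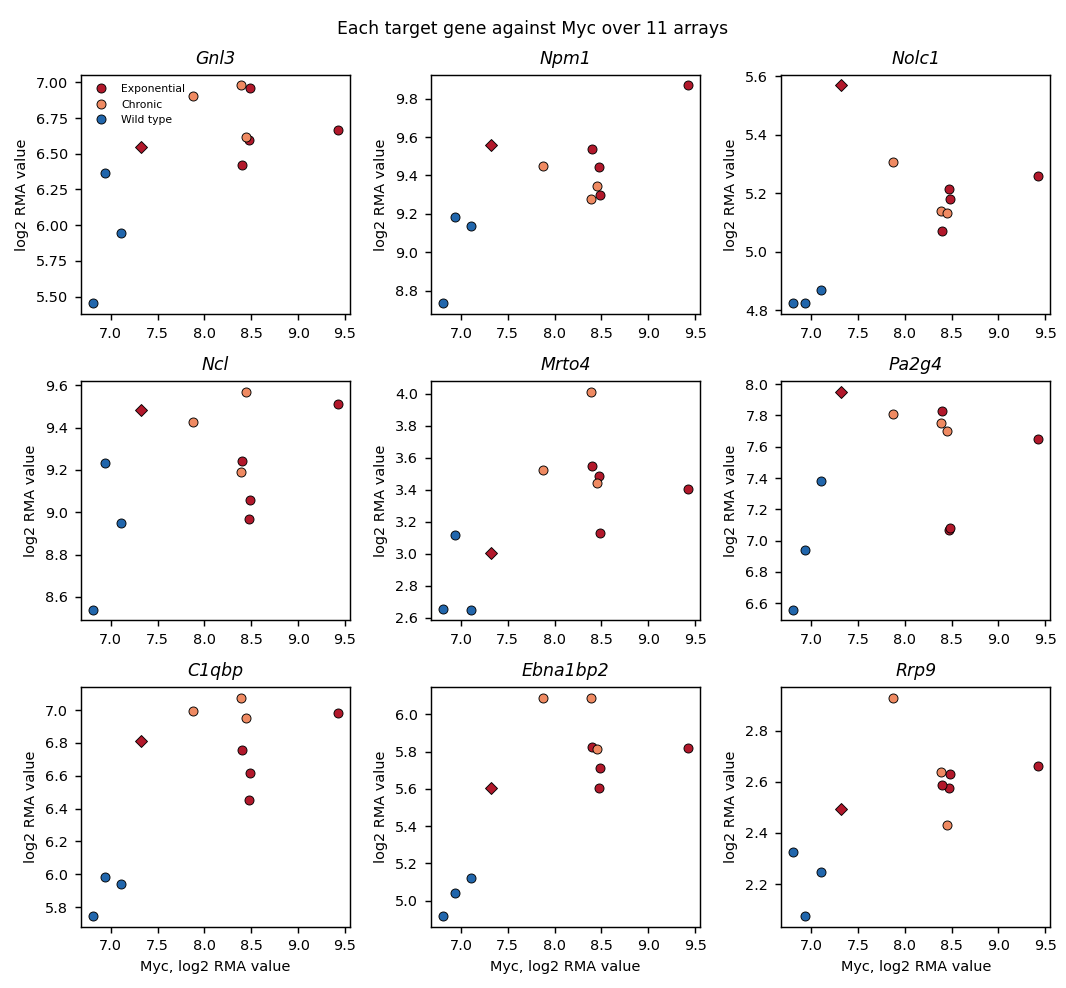
Log2 RMA value of each of 9 target genes (vertical axis) against that of Myc (horizontal axis) on 11 arrays; the diamond is exponential array 4. Wild-type points lie at the lower left, and among leukemia points Nolc1 (5.57) and Pa2g4 (7.95) are highest where Myc is lowest (7.32).

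Some of the targets ran together among the leukemias. Of 36 pairs of targets, 26 had an r above 0 over the 8 leukemia arrays, with a median of 0.26. The highest were C1qbp with Ebna1bp2 (0.77), Ncl with Pa2g4 (0.76), Pa2g4 with C1qbp (0.75) and Mrto4 with Ebna1bp2 (0.74). The lowest were Nolc1 with Mrto4 (-0.61), Gnl3 with Npm1 (-0.49) and Nolc1 with Ebna1bp2 (-0.33). Without exponential array 4, 29 of the 36 were above 0 (median 0.25). The 4 pairs named first were then at 0.85, 0.72, 0.84 and 0.65, Nolc1 with Mrto4 at -0.23, Gnl3 with Npm1 at -0.46 and Nolc1 with Ebna1bp2 at 0.16, so the low r of Nolc1 rested largely on that array. These r are descriptions of arrays that share a normalization.

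Among the controls, wild-type array 1 was the lowest of all 11 arrays for 7 of the 10 genes and tied for the lowest in Nolc1. Over all genes it was the lowest of the 11 arrays for 12.5%, and the lowest of the 3 controls for 31.6%. The lowest array was a control for each of the 10 genes, so the share among controls is the closer comparison. Wild-type array 2 was lowest for Rrp9 and wild-type array 3 for Mrto4. For 80 other genes of ribosomal RNA processing, wild-type array 1 was the lowest of the 11 arrays in 31 and the lowest of the 3 controls in 40. This array also had the highest summed level of pan-T markers (11.19) and the highest CD8 level of the controls (9.35), whose part in its low values was not tested.

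A wider list of genes for ribosomal RNA processing and ribosome assembly lay mostly above 0, like the targets. Of 80 measured genes, 72 had a difference above 0 in all leukemias against wild type, against 51.1% of all genes, and the median was 0.34, where that of all genes was close to 0. Of the 80, 5 were called higher and 0 lower (0.281% of all genes were called higher), and for 17 all leukemias lay above all controls (1.67% of all genes). The called genes were the RNA helicases Ddx21 (log2 difference 0.80, SE 0.12, limma adjusted p = 0.00967) and Ddx10 (0.68, SE 0.11, 0.0132), the nucleolar partner of the Ki-67 protein Nifk (1.18, SE 0.21, 0.0230) and the large-subunit factors Mak16 (0.77, SE 0.14, 0.0284) and Noc3l (0.79, SE 0.16, 0.0419). None of the 5 was called without wild-type array 1 (limma adjusted p from 0.0540 for Ddx21 to 0.236 for Noc3l), 1 was without wild-type array 3, and 9 genes of the list were without exponential array 4. Over 11 fits with 1 array left out, Ddx21 kept its call in 10, Ddx10 in 9, Nifk in 9, Mak16 in 6 and Noc3l in 3. In the exponential phase 71 of the 80 lay above 0 (median 0.31), with Ddx21 called (0.81, SE 0.14, limma adjusted p = 0.0471). With 1 array left out, 0 to 4 genes of the list were called higher in that phase. In the chronic phase 72 lay above 0 (median 0.35), with a call for Dkc1, the pseudouridine synthase dyskerin (1.17, SE 0.18, limma adjusted p = 0.0460). Ddx21 lost its exponential-phase call without wild-type array 1, 2 or 3 or exponential array 2, 3 or 5 (adjusted p from 0.109 to 0.136), and Dkc1 its chronic-phase call whichever array was left out (from 0.0593 to 0.159).

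Ddx21 shows the pattern by array. It stood at 6.18, 6.58, 6.81, 6.64 and 6.58 in exponential arrays 1 to 5, at 6.66, 6.55 and 6.36 in chronic arrays 1 to 3, and at 5.76, 5.65 and 5.83 in wild-type arrays 1 to 3. No leukemia overlapped a control. Nifk stood at 4.97, 5.62, 5.33, 5.11 and 5.71 in exponential arrays 1 to 5, at 5.60, 5.51 and 5.76 in chronic arrays 1 to 3, and at 3.74, 4.73 and 4.35 in wild-type arrays 1 to 3. The leukemias were again all higher, with wild-type array 1 well below the other controls.

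Other parts of the MYC pathway showed smaller or mixed differences in all leukemias against wild type. Over all genes, 51.1% had a difference above 0 in this comparison and 0.281% were called higher. RNA polymerase I subunits and initiation factors had 9 of 15 genes above 0 and 0 called (median 0.13), led by the values of Twistnb (0.63, limma adjusted p = 0.0517), Taf1d (0.74, 0.0990), Polr1e (0.32, 0.522) and Taf1b (-0.20, 0.589). The family of MYC partners and antagonists, without Myc itself, had 4 of 12 genes above 0 and 0 called (median -0.03). Its largest values were those of the MAX-binding repressor gene Mxd1 (0.43, limma adjusted p = 0.338) and of Max itself (-0.33, 0.437), with Mlxip at -0.18 (0.839) and Mycn at 0.08 (0.893). Targets outside the nucleolus had 35 of 45 genes above 0 (median 0.18) and 1 call, for the chaperonin subunit gene Cct5 (0.77, SE 0.16, limma adjusted p = 0.0470), which was lost without any 1 array other than exponential array 4 and wild-type array 2 (adjusted p from 0.0589 to 0.156). Genes that MYC represses had 6 of 11 above 0 and 0 called (median 0.10), with Itgb1 at -0.75 (limma adjusted p = 0.240), Btg1 at -0.66 (0.459), Thbs1 at -0.20 (0.528) and Gas1 at 0.28 (0.655).

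Some targets outside the nucleolus went the other way. For 2 of the 45, all leukemias lay below all controls, namely Odc1 and Slc3a2. For another 2 of the 45 all leukemias lay above all controls, as for 1.67% of all genes. The share of all genes that lay below all controls was not computed. Odc1, the gene of ornithine decarboxylase in the polyamine pathway, stood at 9.46, 7.51, 9.17, 6.99 and 9.54 in exponential arrays 1 to 5, at 8.45, 8.12 and 8.18 in chronic arrays 1 to 3, and at 10.05, 10.09 and 9.91 in wild-type arrays 1 to 3. All leukemias were below all controls, and the exponential arrays split into 3 closer to the controls and 2 far below. Odc1 fell by 1.77 on the log2 scale in the chronic phase (SE 0.13, limma adjusted p = 0.0076), where 0.316% of all genes were called lower, and was called whichever array was left out (adjusted p from 0.0100 to 0.0419). It was not called in 1 limma fit over all 3 groups (adjusted p = 0.262). In the exponential phase its difference was -1.48 (SE 0.57, limma adjusted p = 0.415). Slc3a2, which encodes the heavy chain of amino acid transporters and was singled out after its values were seen, stood at 5.85, 5.52, 5.98, 6.10 and 6.63 in exponential arrays 1 to 5, at 6.19, 5.41 and 5.90 in chronic arrays 1 to 3, and at 6.83, 6.73 and 7.23 in wild-type arrays 1 to 3. Its differences were -0.92 in the exponential phase (SE 0.23, limma adjusted p = 0.159), -1.10 in the chronic phase (SE 0.22, adjusted p = 0.103) and -0.99 in all leukemias (SE 0.22, adjusted p = 0.0634), none of them called.

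Cell division and nucleolar stress genes were not called, although most of the cell division genes lay above 0. The S and G2/M list had 23 of 27 genes above 0 in all leukemias against wild type (median 0.21), against 51.1% of all genes. In the exponential phase 20 of 27 lay above 0 (median 0.11), and in the chronic phase 26 of 27 (median 0.28). In all leukemias Ccne1 was at 0.51 (limma adjusted p = 0.232), Tyms at 0.48 (0.365), Cdt1 at 0.21 (0.626) and Top2a at 1.04 (0.654). The median level of this list was highest on exponential array 4 (4.78), against 3.34 to 3.88 on the other exponential, 3.63 to 4.18 on the chronic and 3.35 to 3.66 on the wild-type arrays. Whether cell division bears on the high Nolc1 and Pa2g4 of that array was not tested. Of the genes that link nucleolar stress to Mdm2 and p53, 5 of 7 were above 0 and 0 called (median 0.15), with the ribosomal protein gene Rpl5 at 0.35 (limma adjusted p = 0.0892), Mdm4 at -0.41 (0.231), Nop53 at 0.34 (0.377) and Ccdc86 at 0.45 (0.399).

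**Figure D5:**
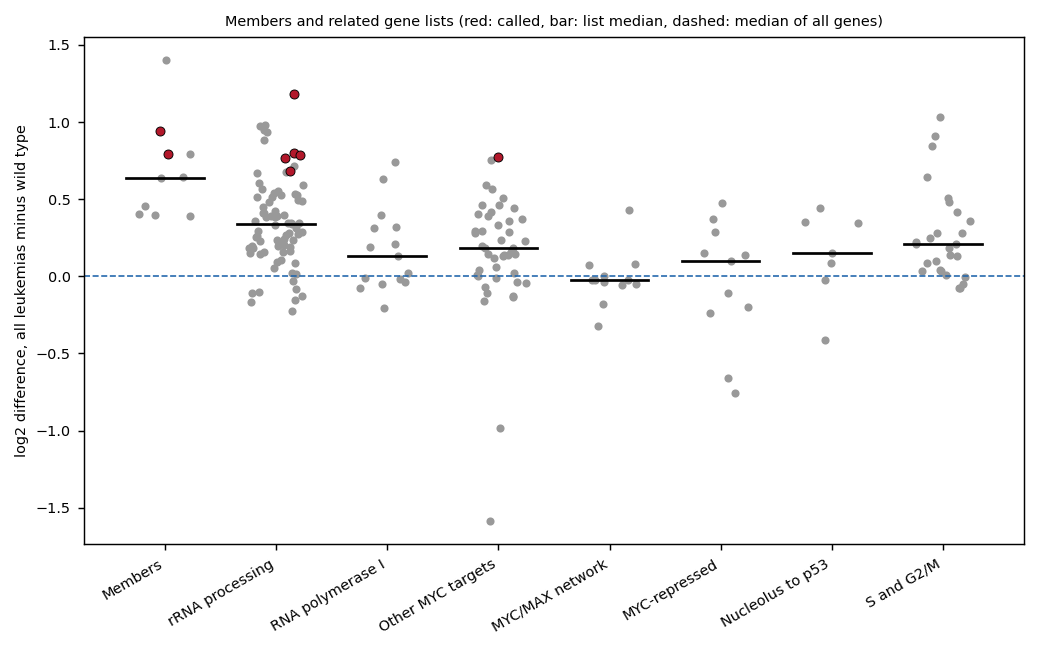
Log2 difference of all leukemias against wild type for each gene of 8 lists (points; red, called; black bar, list median; dashed line, median of all genes). The 10 genes described here have a median of 0.64 and the ribosomal RNA processing genes one of 0.34, and the MYC partner and repressed-gene lists lie around 0.

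Genes were also ordered by their r with Myc over all 11 arrays, leaving out clone names and receptor or immunoglobulin segments. Among the genes kept, Wdr43 followed Myc most closely (r = 0.91). Wdr43 encodes another factor of small-subunit RNA processing. It stood at 7.85, 7.95, 8.19, 7.51 and 8.18 in exponential arrays 1 to 5, at 8.24, 7.71 and 7.71 in chronic arrays 1 to 3, and at 7.22, 7.22 and 7.30 in wild-type arrays 1 to 3. Like Myc, it was lowest among the leukemias on exponential array 4, where it still lay above the controls. The first bases of its gene (RefSeq, GRCm38.p6) hold the E-box that the windows of the targets lacked, shown in capitals, from 17 to 22 bases after the start. It was the only 1 of the 4 windows found for the 5 genes most like Myc that held it, against 7.15% of all windows.
Wdr43 (chr17:71616220-71616249, plus strand): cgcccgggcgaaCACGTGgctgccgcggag
Next came Atp8b4 (r = 0.91), Fbxl5 (0.90), Dusp11 (0.90) and Rpl27a (0.89), and the most opposite were Srrm2 (-0.92), Vmn1r67 (-0.91), Eea1 (-0.91), Parp16 (-0.91) and Itgal (-0.90). The 9 targets had r with Myc over the same arrays from 0.42 (Pa2g4) to 0.75 (Ebna1bp2). These 11 arrays include the step between leukemia and wild type, which the genes of both ends share with Myc.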

How the data were processed

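Gene expression was measured on 11 Affymetrix arrays, grouped by the titles of the labels. The authors deposited log2 values after RMA background correction and quantile normalization, so all arrays share 1 distribution (median 2.30), and a shift of most genes at once would be removed. The log base was judged from the values, and no source used here gives the version of the authors' software. Of 34760 rows, 21640 carried 1 symbol in the platform annotation, and 1321 with several and 11799 with none were left out. Among the rows of 954 genes that had more than 1, that of the highest mean was kept, with no filter on dim rows. Each comparison was fitted with limma 3.58.1 (R 4.3.3, lmFit and eBayes) on its own arrays, with Benjamini-Hochberg adjustment over 19937 genes and calls at an adjusted p under 0.05 and a fold of at least 1.5. The fits were tested on simulated data. Relations with Myc used exact permutation. The genes, lists, naming rule (all 10 genes; called list genes, otherwise up to 4 per list with the smallest p; the 5 genes most and least like Myc) and alternatives were chosen with earlier results of these data known. No source used here says whether a leukemia array is 1 mouse. P-values therefore reflect the spread over arrays, which may be technical, and few arrays give limited precision. No detection calls were used. The counts without Mrto4 and the r between targets without exponential array 4 were chosen after seeing the data.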

Additional observations from a re-analysis of the deposited data

How the results depend on the processing

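Over the alternatives, all called or uncalled values of the 10 genes against wild type kept their direction except Mrto4 in the chronic phase, which was -0.0445 when the rows of a gene were averaged. In the exponential phase against wild type, genes called over all genes moved from 83 to 139 with the replicate number as a block, 4 with the methods' t-test and 45 with all rows tested, and were 16 to 221 with 1 array left out. The count among the 10 genes moved from 2 to 1 with the block, to 0 with a robust variance trend, the methods' t-test or all rows, and was 0 to 3 with 1 array left out. In the chronic phase, genes called moved from 91 to 154 with the robust trend, 0 with the methods' t-test and 0 with all rows, and were 8 to 108 with 1 array left out. Of the 10 genes, 1 was called with the block (main 3), 0 with the t-test, 0 with all rows and 0 to 2 with 1 array left out. For all leukemias, genes called moved from 144 to 264 with the block and 46 with the t-test, and were 50 to 273 with 1 array left out (0 to 4 of the 10 genes). Between the phases 0 to 2 genes were called with 1 array left out, and 0 of the 10. With the replicate block, Myc was called in the exponential phase (1.82, limma adjusted p = 0.0182) and in all leukemias (1.55, adjusted p = 0.0331) and lost its chronic call (adjusted p = 0.061). Deviations of arrays with the same number correlated at -0.04 to 0.18, and those of arrays with different numbers at -0.23 to 0.16. These ranges overlap and cannot decide whether arrays of the same number share anything beyond it, which was not tested. At the unadjusted threshold of the methods' t-test, 4 of the 10 genes passed in the exponential phase (2.39% of all genes), 6 in the chronic phase (3.12%), 6 in all leukemias (2.72%) and 0 between the phases (0.617%).

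Between the phases 3 small differences turned sign with 1 array left out. Myc ran from -0.0671 to 0.458, Nolc1 from -0.0118 to 0.123 (-0.0115 with the replicate block) and Rrp9 from -0.194 to 0.0544. Mrto4 was 0.227 when its rows were averaged. The r with Myc over the leukemia arrays, with 1 array left out, ran from -0.27 to 0.19 for Gnl3, -0.61 to 0.73 for Npm1, -0.938 to 0.0454 for Nolc1, -0.55 to 0.21 for Ncl, -0.22 to 0.48 for Mrto4, -0.59 to -0.11 for Pa2g4, -0.24 to 0.17 for C1qbp, -0.39 to 0.34 for Ebna1bp2 and -0.34 to 0.58 for Rrp9. The cause of these changes was not tested.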
